A study of Homo sapiens with 6 samples.

Results

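The genes described here are 36 genes of cholesterol and fatty acid synthesis in BT549 cells, out of 58735 genes in the count table. They were chosen by symbol, as genes of mevalonate and sterol synthesis, of SREBP regulation and cholesterol trafficking, and of fatty acid synthesis, desaturation and elongation. BT549 is an established basal-like human breast cancer line. Cells received DMSO, the solvent, or AS1842856 for 48 h, with 3 RNA-Seq libraries a group, lettered A to C. AS1842856 is a small molecule that binds unphosphorylated FOXO1, a forkhead transcription factor, and blocks its binding to DNA. The sample labels give its dose as 200 nM and the study's methods as 1 μM, and this difference could not be resolved here. All libraries came from 1 line, with no genetic change and no second inhibitor, so an effect of AS1842856 through FOXO1 and an effect through any other protein cannot be told apart. No culture dates are given in the labels, and p-values measure the spread between these libraries.

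Cells build cholesterol from acetyl-CoA through mevalonate, isoprenoid diphosphates and squalene. They build fatty acids from acetyl-CoA and malonyl-CoA, and then desaturate and elongate them. The SREBP transcription factors control both routes: SREBF2 encodes SREBP-2, best known for sterol genes, and SREBF1 encodes SREBP-1, best known for fatty acid genes. SCAP carries SREBPs out of the endoplasmic reticulum when sterols are low, and INSIG1 and INSIG2 hold them there when sterols are high.

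The libraries held between 15289500 and 22981832 counts. All 36 genes passed the filter on low counts, as did 14338 genes in all. Markers of a mesenchymal line (VIM, FN1, SPARC, CD44, CAV1 and AXL) were present in every library, 6 of 6, at a summed 4858.5 to 4999.7 CPM (counts scaled to library size) with DMSO and 4095.2 to 4155.0 with AS1842856. All 6 were called, AXL (-1.65), CAV1 (-0.59), SPARC (-0.47), CD44 (-0.45) and VIM (-0.34) lower and FN1 (1.13) higher on the log2 scale. Of the luminal markers, the summed level was 121 to 128 CPM with DMSO and 120.5 to 132 with AS1842856, nearly all of it GATA3 and XBP1. ESR1 and PGR had at most 4 counts in any library. GATA3 (0.28) was called higher, and XBP1 (-0.17) and FOXA1 (-1.11) were called lower, on the log2 scale. The summed levels of adipocyte, endothelial and hepatocyte markers were at most 0.393 CPM in any library. The summed level of the 4 leukocyte markers was 1.02 to 2.02 CPM with DMSO and 3.48 to 4.65 CPM with AS1842856, most of it PTPRC, with CD3E at 0 in every library. The part of these marker changes in the results was not tested.

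Most of the 36 genes were lower upon AS1842856 treatment. A gene was called where edgeR's quasi-likelihood test gave an adjusted p under 0.05 (Benjamini-Hochberg over all genes tested). By this rule 31 of the 36 fell, 1 rose (SREBF1) and 4 were not called (INSIG2, NPC2, ACLY and ACSS2). AS1842856 moved much of the transcriptome, so these counts stand beside a high background: 28.4% of all genes tested were called lower, 27.6% were called higher and 56% were called in either direction. The median log2 fold change (AS1842856 over DMSO) was -0.48 over the 36 genes and 0.00302 over all genes tested. Of the 36, 9 fell by 1 or more on the log2 scale (MVK, MSMO1, FDFT1, HMGCS1, FADS2, SREBF2, TM7SF2, MVD and ELOVL6), against 6.33% of all genes tested. The libraries of the groups did not overlap for 34 of the 36 genes, all but INSIG2 and NPC2, against 59.9% of all genes tested. In bulk RNA, fewer cells of a kind and less RNA in each cell cannot be told apart.

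**Figure D1:**
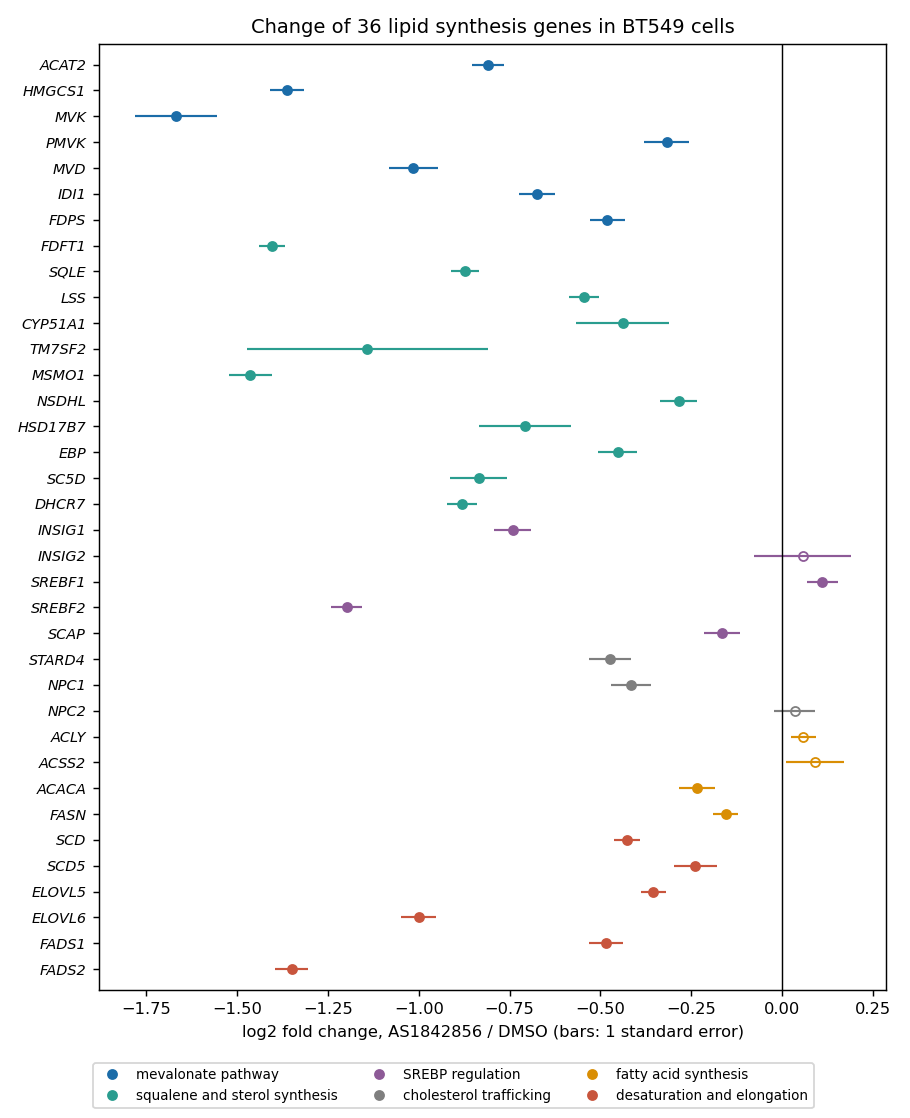
Log2 fold change of each of the 36 genes, AS1842856 over DMSO (x axis), with genes in order of their step or role (y axis), points coloured by role, bars of 1 standard error, filled points for called genes and open points for genes not called. All enzymes of the sterol pathway lie left of 0, from -1.67 (MVK) to -0.29 (NSDHL), and the 5 points right of 0 are INSIG2, SREBF1, NPC2, ACLY and ACSS2.

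**Figure D2:**
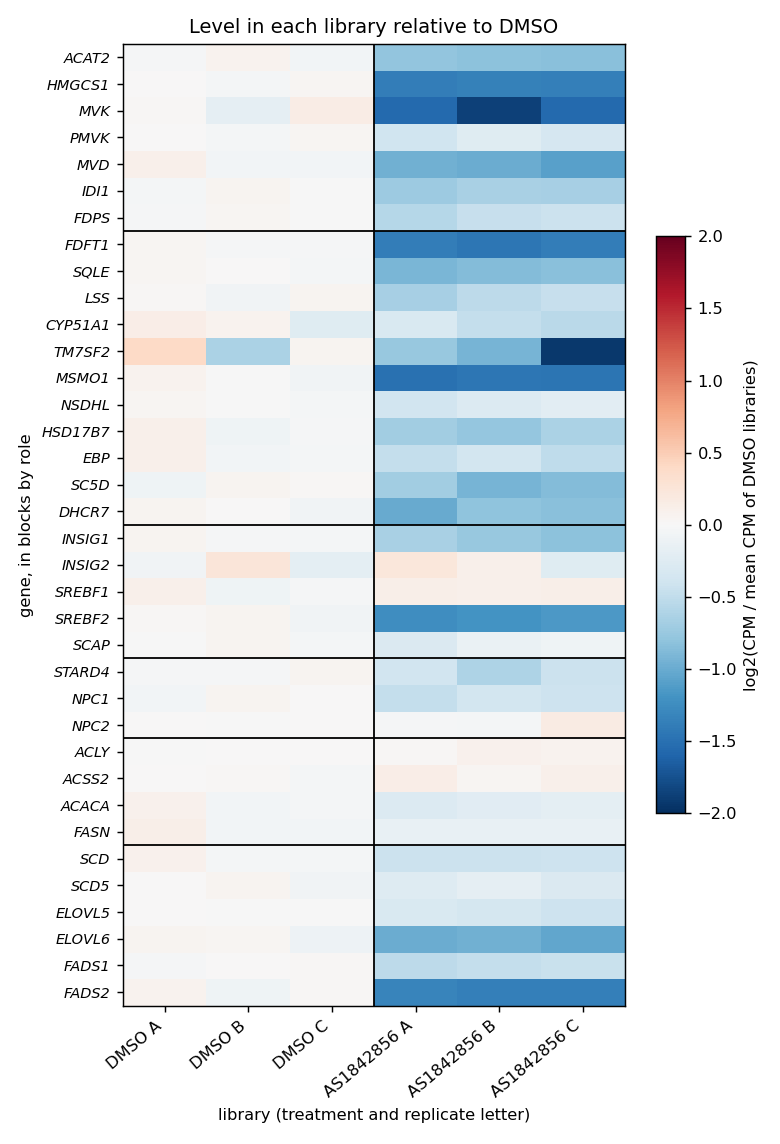
Level of each of the 36 genes (y axis, in blocks by role) in each of the 6 libraries (x axis), as the log2 ratio of its CPM to the mean CPM of the DMSO libraries, with blue for lower and red for higher. The 3 AS1842856 columns are much alike for most genes, and the largest spread between libraries of a group is that of TM7SF2.

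The mevalonate enzymes all fell. All 7 were called lower, and their log2 fold changes had a median of -0.81. MVK, HMGCS1 and MVD had the largest changes. MVK (ENSG00000110921, chr12:109573255-109598117, plus strand, GRCh38) encodes mevalonate kinase. Its level was 20.4, 17.8 and 22.3 CPM with DMSO and 6.84, 5.52 and 6.90 CPM with AS1842856. The highest treated library was far below the lowest DMSO library. The log2 fold change was -1.67 ± 0.11 (SE), the largest of the 36 (edgeR's quasi-likelihood test, Benjamini-Hochberg adjusted p = 1.81e-34), and 2.31% of all genes tested fell further. On the log2(FPKM + 1) scale, which understates changes of low genes, limma gave -1.04. MVK shares 306 exon bases with MMAB on the other strand, a cobalamin enzyme gene, which had a log2 fold change of -1.26. The strand setting of the counting is not given in the sources used here, so reads in the shared bases cannot be assigned.

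HMGCS1 (ENSG00000112972, chr5:43289395-43313512, minus strand) encodes the cytosolic HMG-CoA synthase. Its level was 136, 132 and 139 CPM with DMSO and 52.3, 53.4 and 52.4 CPM with AS1842856. Treated libraries were thus at 38.9% of the DMSO level, and close to each other. On the log2 scale the difference was -1.36 ± 0.05 (adjusted p = 5.48e-79 by edgeR's quasi-likelihood test). MVD (chr16:88651935-88663161, minus strand), the decarboxylase that makes isopentenyl diphosphate, was at 52.0, 47.0 and 47.1 CPM with DMSO and 24.9, 24.6 and 22.9 CPM with AS1842856. The groups were well apart, and the log2 fold change was -1.01 ± 0.07 (adjusted p = 4.98e-35 by edgeR's quasi-likelihood test). Smaller decreases were found for ACAT2 (-0.81), the thiolase of the first step, IDI1 (-0.67), the isomerase of isopentenyl diphosphate, and FDPS (-0.48), the farnesyl diphosphate synthase. PMVK, the phosphomevalonate kinase between MVK and MVD, changed least (log2 fold change -0.32 ± 0.06, adjusted p = 3.04e-06 by edgeR's quasi-likelihood test). Neighbouring steps of the route therefore differed in size, from 31.8% of the DMSO level for MVK to 80.1% for PMVK. ACAT2 shares 397 exon bases with TCP1 on the other strand, a chaperonin gene with 602% of the counts of ACAT2, whose log2 fold change was 0.05 (adjusted p = 0.22 by the same edgeR test).

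The enzymes from squalene to cholesterol fell as well. All 11 were called lower, and their log2 fold changes had a median of -0.84. FDFT1, squalene synthase, commits farnesyl diphosphate to sterols. Its level was 435, 415 and 413 CPM with DMSO and 161, 155 and 162 CPM with AS1842856. No other sterol enzyme was as abundant with DMSO, in CPM or per length, and its treated libraries held 37.8% of the DMSO level. The log2 fold change was -1.40 ± 0.04 (adjusted p = 1.73e-102 by edgeR's quasi-likelihood test). MSMO1 (chr4:165327623-165343160, plus strand), a sterol methyl oxidase of the demethylation steps, was at 81.3, 76.8 and 73.9 CPM with DMSO and 27.6, 28.3 and 28.2 CPM with AS1842856. Its treated libraries lay within 1 CPM of each other, at 36.3% of the DMSO level. This is a log2 fold change of -1.46 ± 0.06 (adjusted p = 4.94e-67 by edgeR's quasi-likelihood test).

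TM7SF2, a sterol reductase, was the lowest of the 36 genes, and its change rests on few reads. Its level was 2.55, 1.24 and 1.99 CPM with DMSO and 1.14, 1.01 and 0.505 CPM with AS1842856, from 56, 19 and 37 counts and from 19, 23 and 9 counts. The groups did not overlap in CPM, but the lowest DMSO library lay close to the highest treated library. The log2 fold change was -1.14 ± 0.33 (adjusted p = 0.00168 by edgeR's quasi-likelihood test), and without DMSO replicate A it was -0.88 with an adjusted p of 0.0564, which ends the call. Its gene shares 16 exon bases with VPS51 on the same strand, which held 5958% of its counts and had a log2 fold change of 0.12.

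The other 8 enzymes of this segment had log2 fold changes from -0.88 to -0.29. DHCR7, the reductase of the last step, was at 208, 200.0 and 191 CPM with DMSO and 98.9, 114 and 112 CPM with AS1842856 (-0.88). SQLE, squalene epoxidase, a rate-limiting enzyme, was at 54.6% of its DMSO level (-0.87), and SC5D, a sterol desaturase, at 56.1% (-0.84). Intermediate decreases were found for HSD17B7 (-0.71), a ketosteroid reductase of the demethylation steps, LSS (-0.55), which closes the sterol rings, and EBP (-0.45), a sterol isomerase. For HSD17B7 the value was -0.45 on the log2(FPKM + 1) scale. NSDHL, a dehydrogenase of the demethylation steps, changed least (-0.29 ± 0.05, adjusted p = 2.15e-07 by edgeR's quasi-likelihood test). CYP51A1, lanosterol demethylase, fell by 0.44 on the log2 scale, but shares 79.4% of its exon bases with the gene model AC000120.2 on the same strand, which held 0 counts. Reads in the shared bases cannot be assigned to either model from the counts. HSD17B7P2, a pseudogene of HSD17B7, held 11.6% as many counts as HSD17B7.

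Summed over the 18 enzymes from ACAT2 to DHCR7, the sterol pathway took 1905 ± 37.1 CPM with DMSO and 1025 ± 24.3 CPM with AS1842856 (mean ± SD, n = 3 each). The sum with AS1842856 was 53.8% of that with DMSO, and the libraries of the groups were far apart, with 1875 CPM the lowest DMSO sum and 1042 CPM the highest treated sum. The 10 fatty acid enzymes from ACLY to FADS2 together took 2210 ± 69.7 CPM with DMSO and 1765 ± 8.44 CPM with AS1842856, which is 79.9%. The larger relative decrease was thus in the sterol enzymes, though each sum is led by its most abundant genes.

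Among the regulators, SREBF2 and SREBF1 went different ways. SREBF2 (ENSG00000198911, chr22:41833079-41907308, plus strand) was at 184, 188 and 174 CPM with DMSO and 76.6, 79.4 and 82.0 CPM with AS1842856. The treated libraries were all far below the DMSO libraries, at 43.5% of their level on average. For SREBF2 the log2 fold change was -1.20 ± 0.04 (adjusted p = 3.72e-77 by edgeR's quasi-likelihood test). SREBF1 (ENSG00000072310, chr17:17810399-17837002, minus strand) was at 119, 105 and 109.6 CPM with DMSO and 120.4, 119.6 and 121 CPM with AS1842856. DMSO replicate A lay only 0.55 CPM below the lowest treated library. For SREBF1 the log2 fold change was 0.11 ± 0.04 (adjusted p = 0.0216 by edgeR's quasi-likelihood test). This call was lost in 7 of 14 alternatives, among them without DMSO replicate B (0.07, adjusted p = 0.228), without DMSO replicate C (adjusted p = 0.102), without AS1842856 replicate C (adjusted p = 0.0603) and with DESeq2 (adjusted p = 0.0946). SREBF1 shares 556 exon bases with RAI1 on the other strand, which had 57.3% of its counts and a log2 fold change of -0.05. The gene-level counts do not separate the SREBP-1a and SREBP-1c transcripts of SREBF1.

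INSIG1 fell and INSIG2 was not called. INSIG1 (chr7:155297776-155310235, plus strand) was at 96.2, 90.4 and 89.9 CPM with DMSO and 58.9, 54.5 and 52.4 CPM with AS1842856. The groups did not overlap, and the log2 fold change was -0.74 ± 0.05 (adjusted p = 6.21e-34 by edgeR's quasi-likelihood test). INSIG2 (chr2:118088452-118110997, plus strand) was at 7.56, 9.38 and 6.94 CPM with DMSO and 9.36, 8.54 and 6.73 CPM with AS1842856. The libraries of the groups were interleaved. Its log2 fold change was 0.06, with a 95% interval from -0.20 to 0.32 (adjusted p = 0.742 by edgeR's quasi-likelihood test), and changed sign when DMSO replicate C (-0.03) or AS1842856 replicate A (-0.04) was left out. SCAP was at 81.4, 84.8 and 79.7 CPM with DMSO and 67.0, 74.7 and 77.1 CPM with AS1842856. Treated libraries were lower in 3 of 3, by a small margin. The log2 fold change was -0.17 ± 0.05 (adjusted p = 0.00239 by edgeR's quasi-likelihood test), and without AS1842856 replicate A it was -0.11 with an adjusted p of 0.0693, which ends the call.

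The promoters of SREBF2 and SREBF1 are shown because these genes moved apart. Those of HMGCS1 and MSMO1 are shown as examples from the 9 genes that fell by 1 or more on the log2 scale. RefSeq (GRCh38.p14) gave windows from 250 bases before to 50 after the start for 32 of the 36 genes, 44 windows in all, and none for ACAT2, FASN, FDFT1 and SQLE. The 250 bases before the start are printed from 5′ to 3′ on the strand of the gene: chr22:41832855-41833104 (plus) for SREBF2, chr17:17836987-17837236 (minus) for SREBF1, chr5:43313413-43313662 (minus) for HMGCS1 and chr4:165327419-165327668 (plus) for MSMO1. Capitals mark matches to TCACNCCAC, a pattern like the sterol regulatory element that SREBPs bind, and to CCAAT, the box bound by NF-Y, each searched on both strands (ATTGG is CCAAT on the other strand).
SREBF2: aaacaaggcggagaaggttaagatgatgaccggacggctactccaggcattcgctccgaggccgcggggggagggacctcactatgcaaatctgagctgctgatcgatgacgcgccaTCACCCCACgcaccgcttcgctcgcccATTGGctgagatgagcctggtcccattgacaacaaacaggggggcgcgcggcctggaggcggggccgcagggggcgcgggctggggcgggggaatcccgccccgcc
SREBF1: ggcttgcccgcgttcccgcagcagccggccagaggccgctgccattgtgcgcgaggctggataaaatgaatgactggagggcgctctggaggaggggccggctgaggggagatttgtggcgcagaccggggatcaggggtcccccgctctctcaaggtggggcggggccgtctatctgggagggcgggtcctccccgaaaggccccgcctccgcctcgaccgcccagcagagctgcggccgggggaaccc
HMGCS1: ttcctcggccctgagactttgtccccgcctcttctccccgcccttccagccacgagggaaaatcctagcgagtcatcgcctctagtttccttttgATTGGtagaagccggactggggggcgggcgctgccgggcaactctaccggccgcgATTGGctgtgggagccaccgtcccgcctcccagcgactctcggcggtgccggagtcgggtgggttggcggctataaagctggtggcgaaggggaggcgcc
MSMO1: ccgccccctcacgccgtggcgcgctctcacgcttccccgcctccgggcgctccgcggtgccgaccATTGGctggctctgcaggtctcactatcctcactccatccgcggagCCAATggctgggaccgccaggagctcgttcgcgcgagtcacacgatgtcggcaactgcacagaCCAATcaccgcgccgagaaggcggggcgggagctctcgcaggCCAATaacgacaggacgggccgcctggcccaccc

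In these printed windows SREBF2 held both patterns, HMGCS1 and MSMO1 held only CCAAT, and SREBF1 held neither. The printed SREBF1 window lies at the upstream end of the gene. It does not cover starts further inside the gene, so it does not show whether SREBF1 lacks these patterns elsewhere. Whether the patterns relate to the different changes of SREBF2 and SREBF1 was not tested. The match to TCACNCCAC in SREBF2 began 133 bases before the start, and its CCAAT match 106 bases before. MSMO1 held 4 CCAAT matches and HMGCS1 held 2. Another HMGCS1 window (chr5:43313132-43313431), not printed, held GGGCGG but no CCAAT match. Over all 44 windows, TCACNCCAC matched in 1 (2.27%, against 1.13% of 35116 windows of all genes). CCAAT matched in 28 windows (63.6%, against 34.6% of all), which belong to 24 of the 32 genes. GGGCGG, the GC box of SP1, matched in 39 windows (88.6%, against 45% of all), and CACGTG, an E-box that SREBPs can also bind, in 6 (13.6%, against 7.26% of all). The forkhead pattern GTAAACA matched in 1 window, that of ELOVL6, 143 bases before the start (2.27%, against 3.42% of all). This share rests on 1 match, and its order against all windows was reversed in the shorter windows given below. The genes described are all protein-coding. Over windows of protein-coding genes alone, the shares were 1.13% for TCACNCCAC, 34.7% for CCAAT, 56.3% for GGGCGG, 8.34% for CACGTG and 2.85% for GTAAACA. Several windows of 1 gene can share bases. A match is a description of letters and not a bound site.

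STARD4 and NPC1, of cholesterol trafficking, fell, and NPC2 was not called. STARD4, which moves cholesterol between membranes, was at 58.8, 58.5 and 61.9 CPM with DMSO and 46.0, 39.0 and 44.5 CPM with AS1842856. The groups were apart, and the log2 fold change was -0.47 ± 0.06 (adjusted p = 1.14e-13 by edgeR's quasi-likelihood test). NPC1, the membrane protein that exports cholesterol from lysosomes, was at 63.2, 68.2 and 65.8 CPM with DMSO and 47.3, 50.8 and 49.2 CPM with AS1842856. Treated libraries were again all lower, and the log2 fold change was -0.42 ± 0.06 (adjusted p = 4.57e-12 by edgeR's quasi-likelihood test). NPC2, the soluble lysosomal partner of NPC1, was at 54.4, 53.7 and 54.2 CPM with DMSO and 53.3, 52.4 and 60.8 CPM with AS1842856. Treated replicate C was above all others and the other treated libraries were below all DMSO libraries. Its log2 fold change was 0.03, with a 95% interval from -0.08 to 0.15 (adjusted p = 0.623 by edgeR's quasi-likelihood test), and was -0.04 without AS1842856 replicate C. STARD4 and NPC1 each overlap a gene on the other strand that rose: STARD4-AS1 (0.54) had 20.7% of the counts of STARD4, and RMC1 (0.44) had 39.7% of those of NPC1.

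The enzymes that make palmitate changed little. ACACA, the carboxylase that makes malonyl-CoA, was at 92.2, 83.0 and 84.4 CPM with DMSO and 71.3, 74.1 and 75.9 CPM with AS1842856. The groups did not overlap, and the log2 fold change was -0.23 ± 0.05 (adjusted p = 1e-05 by edgeR's quasi-likelihood test). FASN, fatty acid synthase, was at 493, 439 and 437 CPM with DMSO and 410.1, 411 and 409.7 CPM with AS1842856. DMSO replicate A stood above the other DMSO libraries by more than they differed from the treated ones. The log2 fold change was -0.16 ± 0.04 (adjusted p = 5.09e-05 by edgeR's quasi-likelihood test), and -0.10 without that library (adjusted p = 0.0131). ACLY, which splits citrate into acetyl-CoA, was at 336, 338 and 338 CPM with DMSO and 345, 357 and 353 CPM with AS1842856. Although its libraries did not overlap, the log2 fold change of 0.06 had a 95% interval from -0.01 to 0.13 and was not called (adjusted p = 0.148 by edgeR's quasi-likelihood test). ACSS2, which makes acetyl-CoA from acetate, had a log2 fold change of 0.09 with an interval from -0.07 to 0.25 (adjusted p = 0.346 by the same edgeR test).

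The 6 desaturases and elongases among the 36 genes all fell, with a median log2 fold change of -0.46. FADS2 (ENSG00000134824, chr11:61792980-61867354, plus strand), the first desaturase of polyunsaturated fatty acid synthesis, was at 164, 147 and 158 CPM with DMSO and 62.9, 60.6 and 60.7 CPM with AS1842856. Treated libraries were at 39.3% of the DMSO level, and the log2 fold change was -1.35 ± 0.05 (adjusted p = 1.78e-81 by edgeR's quasi-likelihood test). ELOVL6 (ENSG00000170522, chr4:110045846-110199199, minus strand), which elongates palmitate, was at 129, 129 and 117 CPM with DMSO and 62.8, 63.9 and 60.6 CPM with AS1842856. The groups were far apart, and the log2 fold change was -1.0 ± 0.05 (adjusted p = 4.48e-56 by edgeR's quasi-likelihood test). FADS1 (chr11:61799625-61829318, minus strand), the desaturase that acts after FADS2, was at 104, 105 and 106 CPM with DMSO and 73.0, 75.4 and 77.1 CPM with AS1842856. Its change was smaller than that of FADS2, at -0.48 ± 0.05 (adjusted p = 3.35e-20 by edgeR's quasi-likelihood test). FADS1 and FADS2 lie on opposite strands and share 490 exon bases. SCD, the main stearoyl-CoA desaturase, fell by 0.43 on the log2 scale, ELOVL5, an elongase of polyunsaturated fatty acids, by 0.35 and SCD5, a second stearoyl-CoA desaturase, by 0.24.

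Levels were compared between genes only per length, as deposited FPKM (fragments scaled to gene length and library size). With DMSO, ELOVL5 was the highest of the 36 at 109 ± 0.771 FPKM (mean ± SD, n = 3), followed by SCD at 83.4 ± 4.21 and FDFT1 at 80.4 ± 2.39. The libraries of SCD and FDFT1 overlapped, so these did not differ beyond their spread. ACLY (64.3 ± 0.158), SQLE (58.5 ± 1.85) and FASN (48.4 ± 3.42) came next, and FASN did not differ beyond its spread from DHCR7 (47.7 ± 2.08). The lowest were MVK (3.09 ± 0.354), CYP51A1 (2.73 ± 0.367), HSD17B7 (2.30 ± 0.154), INSIG2 (2.0 ± 0.315) and TM7SF2 (0.562 ± 0.193), and the libraries of neighbours in this order overlapped, save those of TM7SF2. CYP51A1 shares 79.4% of its exon bases with AC000120.2 on the same strand. How reads in these bases were counted is not known, so its FPKM may understate its level. With AS1842856, ELOVL5 was still the highest (85.4 ± 3.20 FPKM), ACLY moved from rank 4 to rank 2 (67.0 ± 1.19) and FDFT1 from rank 3 to rank 7 (30.4 ± 0.715). HMGCS1 went from rank 12 (28.7 ± 0.715) to rank 19 (11.1 ± 0.131) and MSMO1 from rank 13 to rank 22, whereas SREBF1 went from rank 22 to rank 16.

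**Figure D3:**
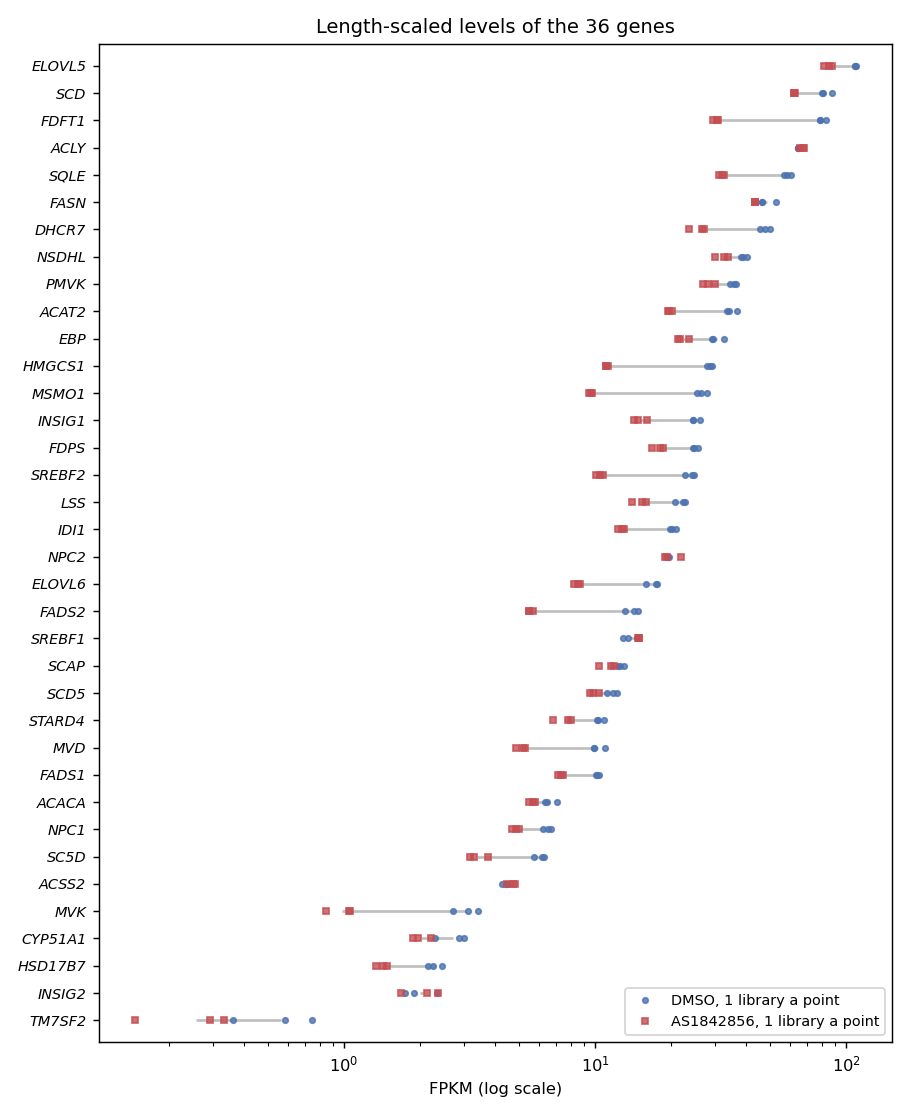
FPKM of each of the 36 genes (x axis, log scale), with genes ordered by their DMSO mean (y axis), 1 point a library, circles for DMSO and squares for AS1842856, and a line between the group means. The gap between groups is wide for FDFT1 (80.4 against 30.4 FPKM on average) and MVK (3.09 against 0.984), and absent for INSIG2 and NPC2, whose points are mixed.

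Ratios within 5 pairs of related genes were computed in each library from FPKM. In each pair the gene with the lower log2 fold change was put on top, so that all 5 fell follows from this order. The libraries of the groups did not overlap in any of the 5. The ratio of SREBF2 to SREBF1 was 1.65, 1.91 and 1.69 with DMSO and 0.676, 0.705 and 0.720 with AS1842856. SREBF2 was thus the higher of the pair in every DMSO library and the lower in every treated library. The ratio of FADS2 to FADS1 crossed 1 in the same way, from 1.38 ± 0.0880 to 0.759 ± 0.0360 (mean ± SD, n = 3). INSIG1 exceeded INSIG2 by a factor of 12.7 ± 2.0 with DMSO and 7.38 ± 0.907 with AS1842856. The ratio of ELOVL6 to ELOVL5 went from 0.156 ± 0.00792 to 0.0997 ± 0.00229. The ratio of SCD to SCD5 changed least, from 7.12 ± 0.463 to 6.27 ± 0.301. In the exact two-sided permutation test each of the 5 ratios gave p = 0.1 (0.1 after Benjamini-Hochberg adjustment over the 5), the smallest value that 3 against 3 libraries allow, so no ratio could pass the threshold.

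**Figure D4:**
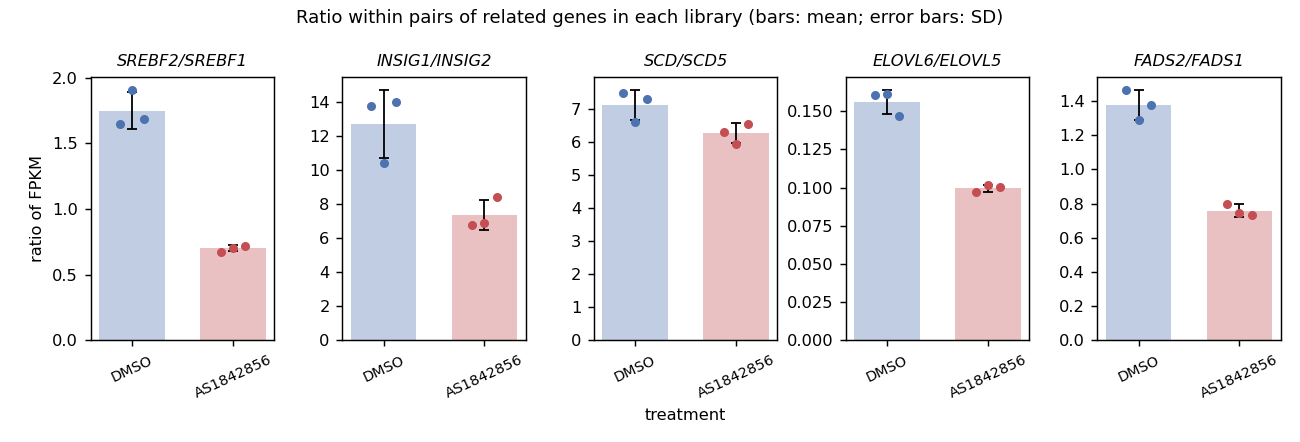
Ratio of FPKM within 5 pairs of related genes (y axis, from 0, a scale for each pair) by treatment (x axis), with 1 point a library, bars for the mean and error bars for the SD (n = 3). The gene with the lower log2 fold change is on top in each pair, and each ratio is lower in all 3 treated libraries. The ratios of SREBF2 to SREBF1 and FADS2 to FADS1 pass from above 1 to below 1.

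Genes of related routes, taken from lists outside the 36, did not move one way, and their counts stand beside the 28.4% of all genes tested that were called lower and the 27.6% called higher. Of 11 genes of SREBP processing and degradation, 4 fell and 7 rose, with a median log2 fold change of 0.17. ERLIN1 (-0.79) and ERLIN2 (-0.42), endoplasmic reticulum proteins, and MBTPS1 (-0.66), the first protease to cut SREBPs, fell. PAQR3 (0.42), C12orf49 (0.41) and TMUB1 (0.36) rose. Of 11 genes that draw isoprenoids off the mevalonate route to other products, 3 fell (COQ2, FNTB and DHDDS), 5 rose and 3 were not called, with a median of 0.08. The share called was 72.7%, against 56% of all genes tested, and the decreases alone were near the background. FDPS, which feeds them, fell, while NUS1 (0.43), of dolichol synthesis, and ZMPSTE24 (0.41), a protease of prenylated proteins, rose. Of 14 genes of cholesterol storage and transport, 7 fell and 4 rose, with a median of -0.19. Those that fell included NCEH1 (-0.96) and OSBPL5 (-0.67), and GRAMD1A (0.70) was the highest of those called.

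Among 19 tested genes of other steps of fatty acid synthesis and elongation, 7 fell and 8 rose, with a median of 0.04. ELOVL7 (-1.31), HACD1 (-0.94) and FADS3 (-0.86) fell. ACSL1 (1.38) and ACSL4 (0.61), which activate fatty acids, and the elongase ELOVL1 (0.41) rose. Elongases of this list thus went both ways, unlike those among the 36 genes. Of 15 glycerolipid and lipid droplet genes, 9 fell and 3 rose, with a median of -0.31, led by AGPAT3 (-1.49), LPIN1 (-1.24) and DGAT2 (-1.14). Of 19 tested genes of fatty acid oxidation, 8 fell and 3 rose, with a median of -0.06, and PPARA (-1.06) and CPT1A (-0.92) were the lowest of those called. The share called in this list, 57.9%, was near the 56% of all genes tested, so its counts are no result about the list. None of these 6 lists had all of its tested genes lower, as the 18 sterol enzymes did, but no test between lists was made.

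**Figure D5:**
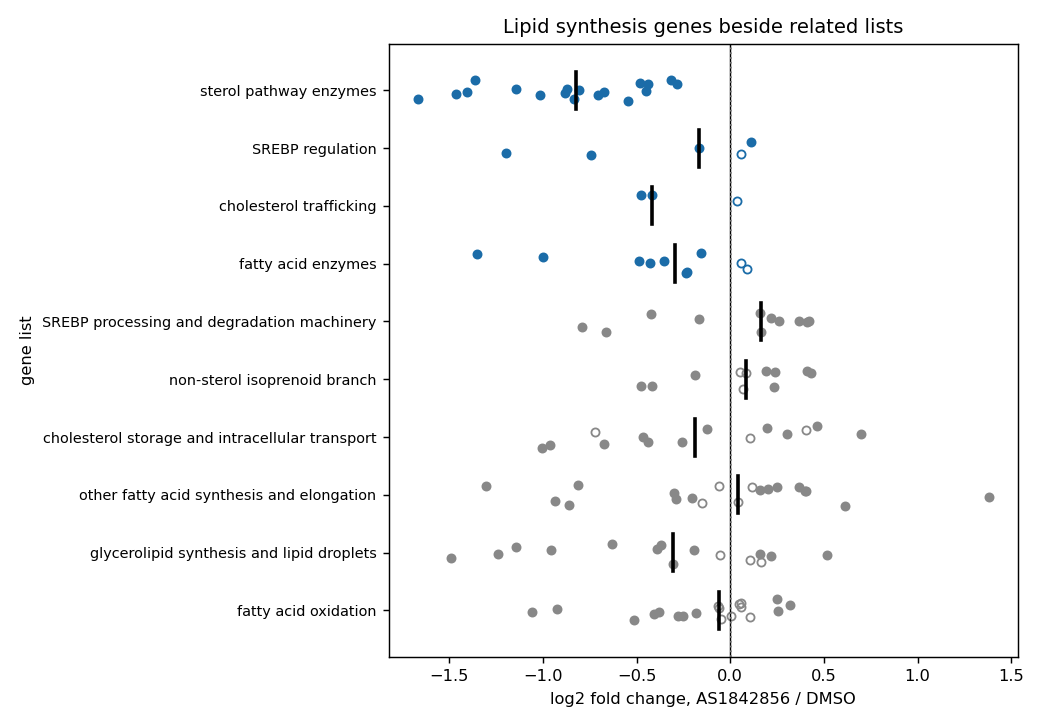
Log2 fold change of each tested gene (x axis, AS1842856 over DMSO) in 4 groups of the 36 genes (blue) and 6 related lists (grey), with filled points for called genes, open points for genes not called and a black bar at the median of each list. The 18 sterol pathway enzymes all lie below 0 with a median of -0.82, whereas each related list has called genes on both sides of 0.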

How the data were processed

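RNA-Seq was measured in 6 BT549 libraries. Groups and replicate letters came from the sample labels. The authors deposited raw counts per gene, without normalization, and FPKM per gene, scaled by gene length and library size. The methods name STAR for mapping, and the submitters' processing notes name CASAVA, Bowtie 0.12.2 and GRCh38/hg38. The counting tool and its use of strand are not given in the sources used here. All 58735 gene identifiers matched GENCODE release 29 (Ensembl 94, GRCh38), the source of symbols and positions.

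The 36 genes and the other lists were chosen with earlier results of these data known. Counts were filtered by filterByExpr (minimum count 10, minimum total 15), scaled by TMM and compared with glmQLFit (robust) and glmQLFTest of edgeR 4.0.16 in R 4.3.3, with Benjamini-Hochberg adjustment at 0.05. Intervals are 1.96 SE on either side. CPM used TMM-scaled library sizes. Genes described library by library were, in each of the 6 roles, the 3 called genes with the largest change, any called gene that went against its role's majority, SREBF1, SREBF2, INSIG1 and INSIG2 in all cases, and DHCR7, NPC2 and ACLY, added after their values were seen. Of each other list, at most 3 called genes a direction were named. Some genes and 1 list are not reported here. With totals of 15289500 to 22981832 counts a library, edgeR's common coefficient of biological variation was 0.0374. Replicates differed by more than counting error (chi-square per degree of freedom 2.36 to 3.27). Tried as alternatives were DESeq2 1.42.0, DESeq2's size factors within edgeR, scaling by library totals, dropping the filter, a filter at a mean count of 50, leaving out each library, a replicate block, and promoter windows of 150 bases. Log-scale FPKM, with 1 or 0.1 added, was fitted with limma 3.58.1 where a gene averaged 0.5 FPKM or more. Pair ratios were compared by exact permutation in scipy 1.17.1.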

Additional observations from a re-analysis of the deposited data

How the results depend on the processing

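The number of the 36 genes called lower was 30 or 31 under every alternative run. The number called higher, 1 (SREBF1), was 0 with DESeq2 and its own size factors, with no filter on low counts and with limma on log2(FPKM + 1) or log2(FPKM + 0.1). With each library left out it ranged from 0 to 1, being 0 without DMSO replicate B, DMSO replicate C or AS1842856 replicate C. The median log2 fold change was -0.44 with limma on log2(FPKM + 1), a scale that shrinks the changes of low genes, and ranged from -0.51 to -0.49 with each library left out.

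Of the values of single genes under the alternatives, 492 stayed on the same side of the threshold and 9 lost their call, in SREBF1 (7 of 14 alternatives, largest adjusted p = 0.228 by edgeR without DMSO replicate B), TM7SF2 (without DMSO replicate A) and SCAP (without AS1842856 replicate A). TM7SF2 was under the stricter filter and the FPKM minimum, where 35 genes were tested. The replicate letters are shared by the groups, but same-lettered libraries did not deviate together (r = -0.00993 for A, 0.00537 for B and -0.0377 for C, across genes). No library correlated best with its own letter. With the letter as a replicate block, 31 genes were lower, 1 was higher and the median was -0.49. Over all genes tested, calls ranged from 6660 to 8030. Depth limits TM7SF2 most, at 9 to 56 counts a library. In the 150 bases before the start, 54.5% of windows held CCAAT (23.5% of all, 24.8% of those of protein-coding genes). CACGTG was held by 6.82% (4.57% of all, 5.37% of those of protein-coding genes). GTAAACA was held by 2.27%, from 1 window (1.73% of all, 1.43% of those of protein-coding genes).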
